A study of Mus musculus with 9 samples.

Results

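Oligodendrocytes, the myelin-forming cells of the brain, arise from precursors that divide and spread through the tissue after birth and then leave the cell cycle, pass a short newly formed stage and start to make myelin. Each step has its own marker genes. Precursors carry Pdgfra, the receptor for platelet-derived growth factor A, and Cspg4, the NG2 proteoglycan, while newly formed cells switch on Gpr17, Bcas1 and Enpp6 before the myelin genes. A set of transcription factors runs through these steps: Olig1, Olig2, Sox10 and Nkx2-2 specify and hold the lineage, and Myrf is needed for myelin gene expression.

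These 10 genes were taken by name, 2 of the precursor stage, 3 of the newly formed stage and 5 transcription factors, out of the 15340 genes tested in RNAseq of the mediobasal hypothalamus (MBH), which includes the arcuate nucleus with its feeding-related neurons. Dams of the CTRL group drank water and dams of the Emul group drank water with 1% carboxymethylcellulose (CMC) and 1% polysorbate 80 (P80), both emulsifiers used in food, from 6 weeks before mating until the end of lactation. The offspring sequenced were wild-type C57Bl/6 males of postnatal day 21 in both groups, with 4 CTRL and 5 Emul libraries that the methods describe as litters. Messenger RNA was sequenced with strand kept, and total estimated counts ranged from 28245360 in CTRL 3 to 46067534 in Emul 4. The tissue was whole MBH with all its cell types, so fewer cells of a type and less RNA per cell cannot be told apart. Of 10 genes that mark MBH neurons, such as Pomc, Agrp and Nr5a1, 9 passed the filter on low counts and Kiss1 did not.

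Positions are those of the GENCODE M21 annotation on the mouse build mm10. Pdgfra is at chr5:75152292-75198215 on the plus strand and Cspg4 at chr9:56865033-56899870 on the plus strand. Bcas1 is at chr2:170346991-170427845 on the minus strand and Enpp6 at chr8:46986887-47096762 on the plus strand. Olig2 (chr16:91225457-91228677) and Olig1 (chr16:91269772-91271933) both lie on the plus strand of chromosome 16. Sox10 is at chr15:79154908-79165240, Myrf at chr19:10208272-10240748 and Nkx2-2 at chr2:147177546-147194243, all on the minus strand.

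Promoter windows of 300 bases around a transcript start were matched by symbol in RefSeq (GRCm38.p6) for 5 of the 10 genes (Pdgfra, Cspg4, Enpp6, Olig2 and Nkx2-2). Shown here are the windows of Enpp6 and Nkx2-2, which had the lowest fold changes, and of Pdgfra, which had the fold change nearest 0. Capitals mark ACAAAG and ACAATG, letters that SOX factors bind, and CANNTG, the E-box bound by basic helix-loop-helix factors such as the Olig proteins, each searched on both strands. CAGCTG, an E-box that CANNTG includes, was also searched. The Enpp6 window lies at chr8:46986637-46986936 (plus strand), that of Nkx2-2 at chr2:147186353-147186652 (minus strand) and that of Pdgfra at chr5:75152001-75152300 (plus strand), each written 5′ to 3′ on the gene's strand.
Enpp6: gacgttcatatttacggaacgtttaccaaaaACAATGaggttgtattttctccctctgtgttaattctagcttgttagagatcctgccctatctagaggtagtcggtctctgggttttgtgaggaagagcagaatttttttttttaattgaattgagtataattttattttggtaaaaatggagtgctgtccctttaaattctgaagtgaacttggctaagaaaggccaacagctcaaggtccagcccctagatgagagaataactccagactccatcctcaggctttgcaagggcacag
Nkx2-2: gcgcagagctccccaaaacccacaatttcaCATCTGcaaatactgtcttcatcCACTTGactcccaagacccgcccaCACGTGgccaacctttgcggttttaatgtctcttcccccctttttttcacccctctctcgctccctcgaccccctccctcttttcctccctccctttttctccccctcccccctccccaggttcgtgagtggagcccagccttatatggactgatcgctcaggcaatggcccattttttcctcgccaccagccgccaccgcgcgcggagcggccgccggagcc
Pdgfra: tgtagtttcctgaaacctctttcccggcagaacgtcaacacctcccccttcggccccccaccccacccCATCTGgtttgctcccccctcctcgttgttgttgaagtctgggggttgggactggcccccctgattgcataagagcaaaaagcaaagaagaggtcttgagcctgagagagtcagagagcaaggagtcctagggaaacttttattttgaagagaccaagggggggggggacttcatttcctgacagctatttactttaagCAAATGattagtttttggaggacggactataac
The Enpp6 window held 1 ACAATG and 0 E-boxes, the Nkx2-2 window held 3 E-boxes and 0 SOX-type matches, and the Pdgfra window held 2 E-boxes and 0 SOX-type matches. In the remaining windows, that of Olig2 held 1 ACAATG on the opposite strand and that of Cspg4 held 0 matches to any of these letters. CAGCTG was in 0 of the 5 windows. Among all 32851 promoter windows of this length, 72.3% held a CANNTG, 16.3% a CAGCTG, 18.7% an ACAAAG and 12.6% an ACAATG. A match describes the letters and does not show a bound site. GC content was 40.3% in the Enpp6 window, 59.7% in that of Nkx2-2 and 51.0% in that of Pdgfra, beside a median of 52.7% over all windows. The Enpp6 window holds the start of Enpp6-201 and the Nkx2-2 window that of Nkx2-2-201, the transcripts with the largest shares of those genes' counts. The Pdgfra window holds the start of Pdgfra-208, a transcript with under 5% of the gene's counts. Pdgfra-201, the transcript with the largest share, starts at position 75152306, just past the end of the window.

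All 10 genes were transcribed in every library. Levels were set side by side as TPM, which divides by transcript length. Bcas1 had the highest median level over the 9 libraries (225 TPM, 182 to 245), followed by Olig1 (189 TPM, 155 to 223). Gpr17 followed at 86.7 TPM (70.7 to 114). After Gpr17 came Sox10 (59.5 TPM), Myrf (43.2 TPM), Pdgfra (39.1 TPM) and Olig2 (31.2 TPM). Nkx2-2 (24.2 TPM), Enpp6 (22.5 TPM) and Cspg4 (13.6 TPM, 11.9 to 16.3) were lowest. In this order the ranges of neighbouring genes overlapped except between Olig1 and Gpr17, Olig2 and Nkx2-2, and Enpp6 and Cspg4. The newly formed stage genes were thus spread over the order, with Bcas1 at its top and Enpp6 near its end.

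**Figure D1:**
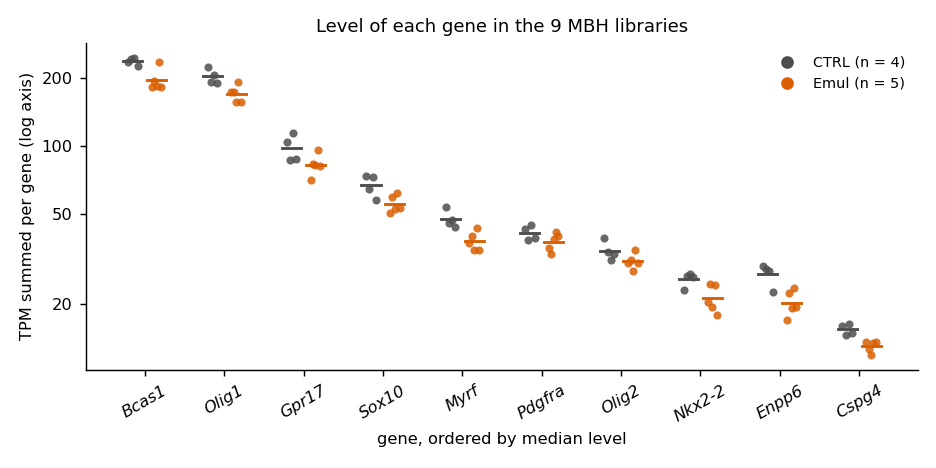
TPM summed per gene (log axis) for the 10 genes in order of their median, with 1 point per library for CTRL (n = 4, grey) and Emul (n = 5, orange) and a bar at each group's mean. Bcas1 lies between 182 and 245 TPM and Cspg4 between 11.9 and 16.3 TPM; TPM are not rescaled between libraries, and the median of all genes was also lower in Emul on this scale (log2 difference -0.10).

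TPM values divide by all RNA in a library, and the share of TPM on mitochondrially encoded genes was 12.7% to 15.6% in CTRL and 16.4% to 19.5% in Emul, with no overlap. The median log2 difference in TPM over 15320 tested genes was -0.10, and over the 10 genes -0.26. The groups were therefore compared on estimated counts per gene scaled by TMM (trimmed mean of M values), where the median difference of all genes was 0.00 on the log2 scale. The values per library below are log2 CPM, counts relative to the scaled library size, on that scale, and the fold changes are Emul minus CTRL by limma-voom with Benjamini-Hochberg adjustment over all genes tested.

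All 10 genes had a negative fold change in Emul, except that Pdgfra turned to 0.0011 with median-of-ratios size factors and to 0.0025 with mitochondrial genes left out, and 0 of the 10 reached an adjusted p-value under 0.05, a rule that called 0.117% of all genes (18 of 15340). Log2 fold changes ran from -0.31 for Enpp6 to -0.0005 for Pdgfra, with a median of -0.15, and 49.2% of all genes had a negative fold change. At an unadjusted p-value under 0.05, 5 of the 10 genes were lower (Enpp6, Bcas1, Myrf, Nkx2-2 and Olig1) and 0 were higher. The same rule called 15.8% of all genes, 8.99% lower and 6.84% higher. These calls are by limma-voom. By a two-sided exact permutation test of the difference of means, only Enpp6 of the 10 genes had a p under 0.05. A p-value under 0.05 with more than a 1.5-fold difference, the cutoff in the study's methods read here as unadjusted, called 0 of the 10 genes and 0.469% of all genes. A figure legend of the study names a false discovery rate instead, and with adjusted p-values 0 of the 10 genes were called as well. CTRL and Emul overlapped for each of the 10 genes, while 6.60% of all genes had groups without overlap. The genes were chosen with results of these data known, so these counts are a description of the 10 genes.

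**Figure D2:**
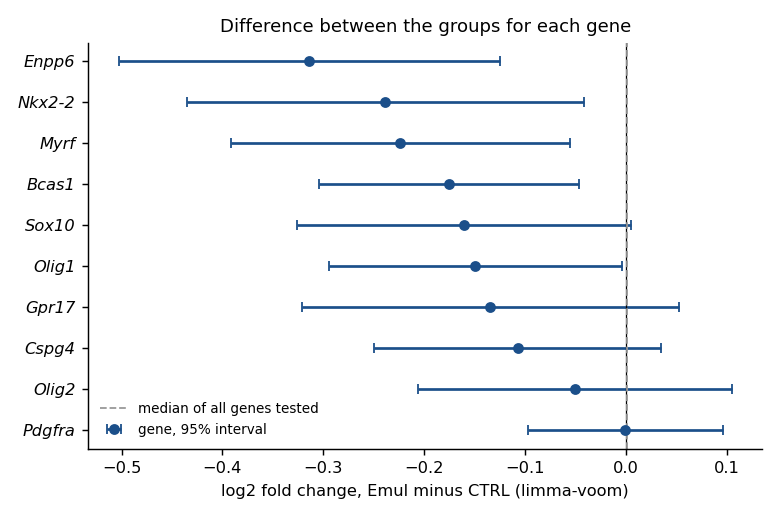
Log2 fold change (Emul minus CTRL, limma-voom) of each of the 10 genes with its 95% interval, with a solid line at 0 and a dashed line at the median of all genes tested. Enpp6 lies lowest (-0.31) and Pdgfra at 0; the intervals of Enpp6, Nkx2-2, Myrf, Bcas1 and Olig1 end below 0 before any adjustment for the number of genes tested.

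The precursor receptor Pdgfra did not differ beyond its spread. Its log2 CPM were 7.03, 6.82, 6.95 and 6.89 in CTRL 1 to 4 and 6.85, 6.87, 6.92, 6.99 and 6.96 in Emul 1 to 5. Every Emul library lay inside the CTRL range. The fold change was -0.0005 ± 0.045 (SE) on the log2 scale with a 95% interval of -0.10 to 0.10 (adjusted p = 0.998, limma-voom). The SD of the CTRL libraries was 0.087 on the same scale.

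Cspg4, the other precursor marker and also a gene of pericytes, was at 5.79, 5.58, 5.76 and 5.57 log2 CPM in CTRL 1 to 4 and at 5.64, 5.46, 5.44, 5.58 and 5.71 in Emul 1 to 5. Emul 2 and Emul 3 were below every CTRL library and the others were inside the CTRL range. Emul was lower by limma-voom at -0.11 ± 0.065 (SE, adjusted p = 0.448), which did not pass the test. Of its counts, 20.1% fell on transcripts with newer Ensembl numbers, and without such transcripts the log2 fold change was -0.06. It was -0.07 without CTRL 1, -0.15 with lengthScaledTPM, gene counts rescaled by transcript length (unadjusted p = 0.019, limma-voom), and -0.14 with the replicate block (unadjusted p = 0.031). In TPM, Cspg4 ranged from 14.7 to 16.3 in CTRL and from 11.9 to 13.6 in Emul, which do not overlap on that scale. Myrf did not overlap in TPM either (43.8 to 53.7 in CTRL, 34.6 to 43.2 in Emul), and the other members did. The median of all genes was also lower in Emul in TPM (log2 difference -0.10). The share of all genes without overlap in TPM was not counted, so the separation is no result about Cspg4 or Myrf. In log2 CPM scaled by TMM, CTRL and Emul overlapped for both genes.

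Enpp6, a choline-specific phosphodiesterase of newly formed oligodendrocytes, had the lowest fold change of the 10. Its log2 CPM were 6.01, 5.94, 5.94 and 5.67 in CTRL 1 to 4 and 5.42, 5.67, 5.44, 5.81 and 5.50 in Emul 1 to 5. Emul 1, 2, 3 and 5 were below every CTRL library, Emul 2 only just, and Emul 4 was inside the CTRL range. The mean was 5.89 ± 0.15 in CTRL (SD, n = 4) and 5.57 ± 0.17 in Emul (SD, n = 5). The fold change was -0.31 ± 0.087 (SE) with an unadjusted p of 0.0035 and an adjusted p of 0.153 by limma-voom. A two-sided exact permutation test of the difference of means gave p = 0.0317, where the smallest possible p was 0.0079. For the other genes with an unadjusted limma-voom p under 0.05, the two-sided exact permutation test gave larger values. Exact permutation p was 0.0556 for Bcas1, 0.0556 for Nkx2-2, 0.0635 for Myrf and 0.143 for Olig1. Enpp6 passed the adjusted threshold with DESeq2 (log2 fold change -0.32, adjusted p = 0.0173), while over the other alternatives the adjusted p ranged from 0.0677 to 0.361.

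Bcas1, which marks newly formed and early myelinating cells, was at 7.90, 7.89, 7.91 and 7.81 log2 CPM in CTRL 1 to 4. In Emul 1 to 5 it was at 7.61, 7.75, 7.63, 7.92 and 7.60. Emul 1, 2, 3 and 5 lay below every CTRL library, and Emul 4 was the highest of all 9. The CTRL libraries were close together (SD 0.046) and the Emul libraries spread more widely (SD 0.14). Its log2 fold change of -0.18 ± 0.059 (SE) did not pass the adjusted threshold (adjusted p = 0.198, limma-voom).

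Gpr17, a receptor gene on chromosome 18 that is high in committed precursors and is switched off as cells mature, was at 8.09, 7.79, 8.18 and 7.84 log2 CPM in CTRL 1 to 4. In Emul 1 to 5 it was at 7.63, 7.92, 7.83, 8.00 and 7.80. Only Emul 1 lay below every CTRL library, and the groups overlapped for the rest. Within CTRL, replicates 1 and 3 were higher than replicates 2 and 4. The fold change was -0.13 ± 0.086 (SE, adjusted p = 0.472, limma-voom), and it was -0.07 without CTRL 3 and -0.08 without Emul 1. Of the 3 newly formed stage genes, Gpr17 thus had the smallest difference relative to its error.

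Myrf, the regulator of myelin gene expression, was at 7.11, 6.91, 6.86 and 6.77 log2 CPM in CTRL 1 to 4 and at 6.67, 6.83, 6.60, 6.83 and 6.50 in Emul 1 to 5. Emul 1, 3 and 5 lay below every CTRL library, and Emul 2 and 4 inside the CTRL range. On the log2 scale Emul differed by -0.22 ± 0.077 (SE, unadjusted p = 0.0133, adjusted p = 0.204, limma-voom).

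Nkx2-2, a homeodomain factor that rises as precursors differentiate, was the lowest of the 10 in counts (482 to 842 per library). Its log2 CPM were 4.16, 4.29, 4.35 and 4.29 in CTRL 1 to 4 and 4.06, 4.31, 3.94, 4.05 and 3.74 in Emul 1 to 5. Emul 1, 3, 4 and 5 were below every CTRL library and Emul 2 was near the top of the CTRL range. The fold change was -0.24 ± 0.090 (SE, adjusted p = 0.233, limma-voom), and on the authors' log2 CPM table it was -0.18 with an unadjusted p of 0.107.

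Sox10, which holds the oligodendrocyte lineage and drives Myrf, was at 6.59, 6.37, 6.52 and 6.24 log2 CPM in CTRL 1 to 4 and at 6.14, 6.42, 6.19, 6.38 and 6.19 in Emul 1 to 5. Emul 1, 3 and 5 were again below every CTRL library. By limma-voom the difference was -0.16 ± 0.076 (SE, unadjusted p = 0.057, adjusted p = 0.333), and without CTRL 1 it was -0.11 on the log2 scale. With a library left out, the unadjusted limma-voom p of Sox10 ranged from 0.0094 (without CTRL 4) to 0.195 (without CTRL 1). Over the other alternatives it ranged from 0.028 (limma-voom, library size alone) to 0.174 (limma-voom, replicate block).

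Olig1 and Olig2 encode basic helix-loop-helix factors that specify the lineage. Olig1 was at 7.87, 7.60, 7.70 and 7.63 log2 CPM in CTRL 1 to 4 and at 7.58, 7.65, 7.43, 7.68 and 7.41 in Emul 1 to 5. Olig2 was at 5.60, 5.35, 5.22 and 5.36 in CTRL 1 to 4 and at 5.33, 5.42, 5.20, 5.45 and 5.29 in Emul 1 to 5. For Olig1, Emul 1, 3 and 5 were below every CTRL library, and for Olig2 only Emul 3 was. The fold change was -0.15 ± 0.067 for Olig1 (SE, adjusted p = 0.302, limma-voom) and -0.05 ± 0.071 for Olig2 (SE, adjusted p = 0.774). The difference between these fold changes was not tested. Without CTRL 1, the highest library for both genes, the log2 fold change was -0.09 for Olig1 and 0.02 for Olig2. The unadjusted limma-voom p of Olig1 was 0.045, and it ranged from 0.021 to 0.169 with a library left out. Whether Olig1 passed 0.05 before adjustment thus depended on the libraries used.

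The 5 Emul libraries were unlike each other across the genes. Emul 1, 3 and 5 were below every CTRL library for 7, 8 and 6 of the 10 genes, and their mean over the genes was -0.21, -0.24 and -0.23 from the CTRL mean on the log2 scale. Emul 2 was below every CTRL library for 3 of the 10 genes, and Emul 4 for 1 of them. On average these libraries were -0.07 and -0.03 from the CTRL mean. Within CTRL, CTRL 1 was the highest of all 9 libraries for 7 of the 10 genes and CTRL 4 was below the CTRL mean for 9. When CTRL 1 was left out, 3 of the 10 genes had an unadjusted p under 0.05, and when any other library was left out, 4 to 6 did. The labels and methods give no batch that could be set against this pattern.

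**Figure D3:**
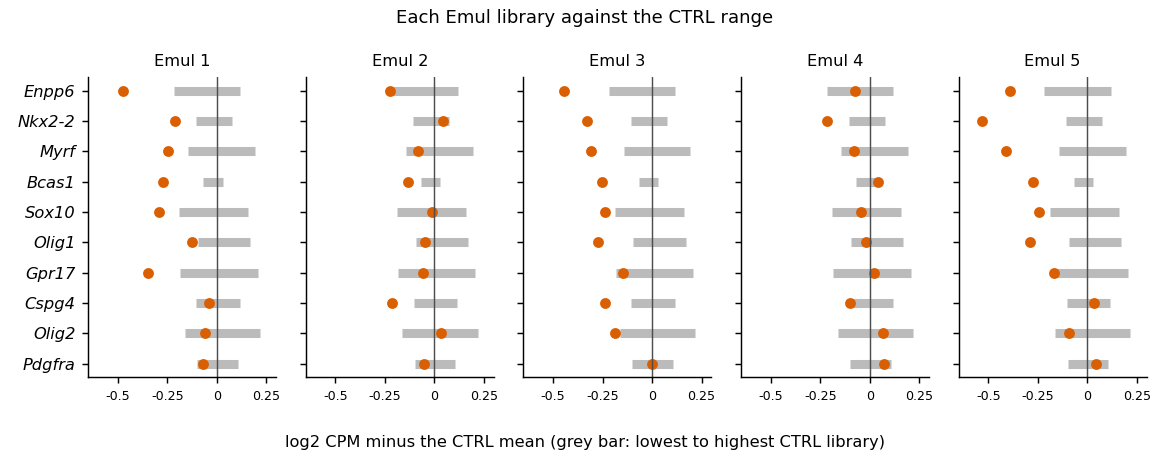
Log2 CPM of each of the 10 genes in each Emul library minus the mean of the 4 CTRL libraries (orange points), with the range of the CTRL libraries as a grey bar. In Emul 1, 3 and 5 the points of 7, 8 and 6 genes lie to the left of the CTRL range, against 3 in Emul 2 and 1 in Emul 4, and Pdgfra lies inside the CTRL range in every panel.

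Means were also taken over the genes of each stage and over the transcription factors, which run through all stages. The mean log2 CPM of Pdgfra and Cspg4 was 6.30 ± 0.100 in CTRL (SD, n = 4) and 6.24 ± 0.072 in Emul (SD, n = 5), a difference of -0.06. For Gpr17, Bcas1 and Enpp6 it was 7.25 ± 0.11 in CTRL and 7.03 ± 0.14 in Emul, a difference of -0.21. For the 5 transcription factors the difference was -0.17, and for a list of 20 myelin genes of mature oligodendrocytes, such as Mbp, it was -0.25. The groups overlapped in each of these means. The mean of the newly formed stage genes exceeded that of the precursor genes by 0.88 to 1.01 in CTRL and by 0.64, 0.95, 0.79, 0.96 and 0.63 in Emul 1 to 5. The same 3 libraries, Emul 1, 3 and 5, thus lay below the CTRL range in this balance. The myelin list minus the precursor genes was 0.59 to 1.01 in CTRL and 0.64, 0.92, 0.58, 0.83 and 0.23 in Emul 1 to 5. There Emul 1 lay inside the CTRL range and Emul 3 just below it. The myelin list minus the newly formed stage genes differed by -0.03 between groups (SD 0.19 in CTRL, 0.16 in Emul). These means are over chosen genes and were given no test.

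**Figure D4:**
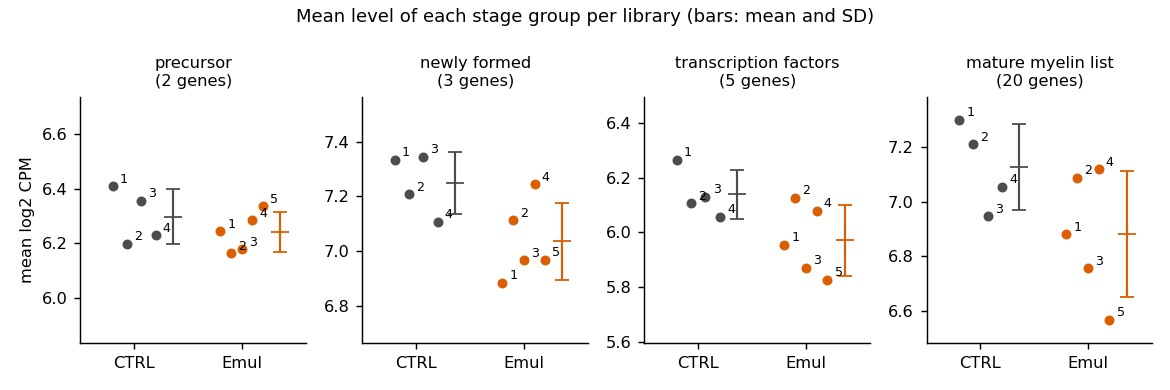
Mean log2 CPM per library of the precursor genes, the newly formed stage genes, the transcription factors and the mature myelin list, with points numbered by replicate and a bar at the mean ± SD of CTRL (n = 4) and Emul (n = 5); each panel spans the same height. The group means differ by -0.06, -0.21, -0.17 and -0.25 from left to right, and the groups overlap in every panel.

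Other genes of the same stages were read from lists of markers that were also chosen with earlier results known. Of 20 other precursor genes, 4 were lower and 0 higher at an unadjusted p under 0.05, with a median log2 fold change of 0.01 (-0.02 with library size alone). The smallest p-values among them were those of Xylt1, a xylosyltransferase that starts proteoglycan sugar chains (-0.12 ± 0.044, SE), and Ccnd1, cyclin D1 (-0.15 ± 0.054, SE), both with an adjusted p of 0.231 by limma-voom. Of 19 other newly formed stage genes tested, 8 were lower and 0 higher, and the median was -0.14. Ust, a uronyl 2-sulfotransferase (-0.18 ± 0.050, SE), and Arpc1b, a subunit of the Arp2/3 actin complex (-0.32 ± 0.098, SE), had the smallest p-values there (adjusted p = 0.156 and 0.175, limma-voom). Tcf7l2, which also marks thalamic neurons, stood apart in that list at 0.66 ± 0.36 (SE, unadjusted p = 0.086), and it was singled out after its values were seen. 9630013A20Rik did not pass the filter on low counts.

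Of 28 other regulators of the lineage, 10 were lower and 2 higher at an unadjusted p under 0.05, with a median of -0.05. Sox2, a factor of neural progenitors and glia (-0.26 ± 0.055, SE), and Tcf12, a partner of the Olig proteins (-0.15 ± 0.034, SE), had the smallest p-values (adjusted p = 0.101 and 0.103, limma-voom). The number called was 7 in place of 12 with lengthScaledTPM and was 8 to 12 with a library left out. Of the 20 myelin genes of mature cells, 11 were lower and 0 higher, all 20 had a negative fold change, and the median was -0.25. Mbp, myelin basic protein, was at -0.29 ± 0.088 (SE, adjusted p = 0.173, limma-voom). These counts stand beside the 8.99% of all genes lower and 6.84% higher by the same rule. The number among myelin genes was 4 without CTRL 1, 6 without CTRL 2 and 7 without Emul 3. Among the other newly formed stage genes it was 5 without CTRL 1 and 13 without Emul 4, and among the other precursor genes it was 1 without CTRL 3 and 2 without CTRL 4, without Emul 2 or without Emul 3.

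No gene of the platelet-derived growth factor family passed an unadjusted p of 0.05 among 6 tested, beside 15.8% of all genes. Pdgfb and Pdgfrb, a ligand and the receptor of pericytes, had the smallest p-values (-0.14 ± 0.068 and -0.11 ± 0.055, SE, adjusted p = 0.348 and 0.352, limma-voom). With library size alone or without Emul 3, 2 of the 6 had an unadjusted p under 0.05, and 1 did without Emul 1, without Emul 2, with sample quality weights or with older transcripts only. Pdgfa, the ligand of the Pdgfra receptor, was named after its values were seen and was at -0.02 ± 0.037 (SE). Of 11 genes of the cell cycle tested, 0 had an unadjusted p under 0.05 by limma-voom and 0 to 1 did under the other tests and settings. Mcm5 (0.37 ± 0.17, SE, adjusted p = 0.319) and Pcna (0.09 ± 0.053, SE, adjusted p = 0.452), both of DNA replication, had the smallest p-values. Cdk1 did not pass the filter on low counts.

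**Figure D5:**
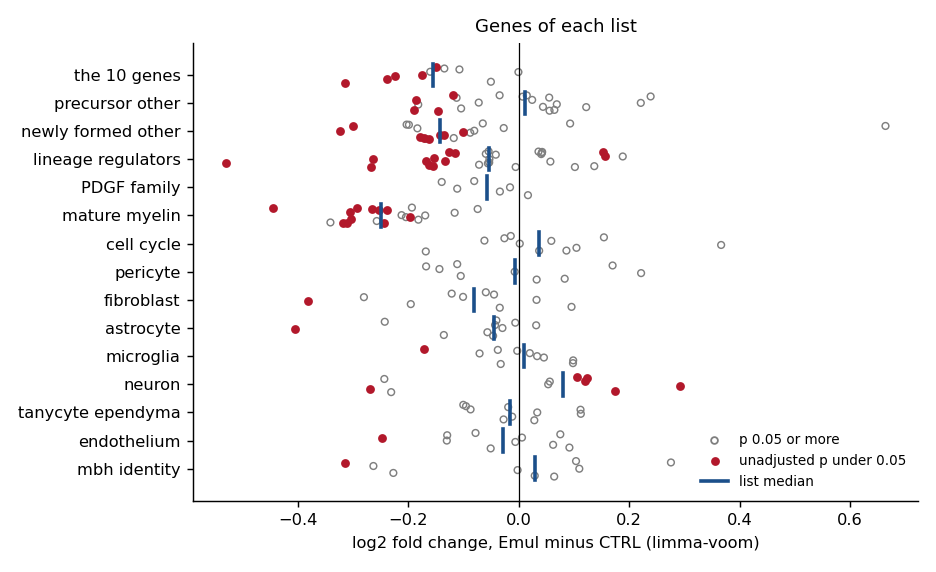
Log2 fold change (Emul minus CTRL, limma-voom) of every tested gene of the 10 genes and of 14 other lists, in rows, filled red where the unadjusted p is under 0.05, with a blue bar at the list median. The medians of the 10 genes, the other newly formed stage genes and the mature myelin genes are -0.15, -0.14 and -0.25, that of the other precursor genes is 0.01 and that of the neuron genes is 0.08.

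Because Pdgfra and Cspg4 are also transcribed in fibroblasts and pericytes, markers of the other cell types of the tissue were counted as well. At an unadjusted p under 0.05, 8.99% of all genes were lower and 6.84% higher. Of 9 pericyte genes tested 0 had an unadjusted p under 0.05, with Notch3 (-0.11 ± 0.052, SE) and Pdgfrb the smallest, and Cox4i2 was not tested. The number was 3 with library size alone or without Emul 1, and 2 without CTRL 2 or without Emul 3. Of 10 fibroblast genes 1 was lower, Fmod (-0.38 ± 0.15, SE), followed by Igf2 (-0.20 ± 0.094, SE). Among fibroblast genes the number was 0 without CTRL 1, CTRL 4, Emul 2 or Emul 5 in turn, 2 without CTRL 2 or CTRL 3, and 3 without Emul 3. Summed TPM of the pericyte list were 159 to 164 in CTRL and 140 to 154 in Emul. Those of the fibroblast list were 261 to 332 and 208 to 289. On that unscaled scale the pericyte, astrocyte and lineage regulator lists did not overlap between groups. The median of all genes was also lower in Emul in TPM (log2 difference -0.10). By limma-voom the median log2 fold change of the pericyte genes was -0.007, with 5 lower and 4 higher. The part of pericytes and fibroblasts in the values of Pdgfra and Cspg4 was not tested.

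Of 10 astrocyte genes 1 was lower, Gfap (-0.40 ± 0.088, SE, adjusted p = 0.102, limma-voom), with Aqp4 at -0.24 ± 0.12 (SE). Of 10 neuron genes 5 were higher and 1 was lower, with Rbfox3, the NeuN antigen (0.12 ± 0.031, SE, adjusted p = 0.116, limma-voom), and Stmn2 (0.17 ± 0.043, SE, adjusted p = 0.121) leading. The list went both ways, since its median was 0.08 while Slc17a6, the vesicular glutamate transporter, was at 0.29 ± 0.098 (SE) and the markers of inhibitory neurons Slc32a1, Gad1 and Gad2 were at -0.27 ± 0.12, -0.24 ± 0.12 and -0.23 ± 0.13 (SE, unadjusted p = 0.0483, 0.065 and 0.100). These 4 genes were singled out after their values were seen. Summed TPM of the astrocyte list were 2470 to 2580 in CTRL and 2165 to 2392 in Emul, without overlap on that unscaled scale. Those of the neuron list were 3515 to 3700 and 3424 to 3590. Of 10 microglia genes 1 was lower, Sall1 (-0.17 ± 0.050, SE), beside P2ry12 at 0.10 ± 0.055 (SE). Of 10 endothelial genes 1 was lower, Slco1a4 (-0.25 ± 0.084, SE), beside Abcb1a at -0.13 ± 0.071 (SE). Among tanycyte and ependyma genes 0 of 10 had an unadjusted p under 0.05, with Foxj1 (-0.10 ± 0.077, SE) and Vim (-0.09 ± 0.072, SE) the smallest. Of the MBH neuron genes 1 was lower, Fezf1 (-0.32 ± 0.10, SE), beside Npy at 0.28 ± 0.14 (SE). All these counts stand beside the 8.99% of all genes lower and 6.84% higher by the same rule. In the astrocyte, microglia, endothelial, fibroblast and MBH neuron lists, 1 gene lower is near that share of all genes. No marker was at 0 in every library. With a library left out, the numbers were 1 to 3 for astrocyte genes (3 without Emul 4 and 2 without CTRL 1, Emul 2 or Emul 5), 4 to 8 for neuron genes, 1 to 2 for microglia genes (2 without CTRL 4), 1 to 3 for endothelial genes (3 without CTRL 3), 0 to 1 for tanycyte and ependyma genes (1 without CTRL 1 or CTRL 2) and 1 to 2 for MBH neuron genes (2 without CTRL 1, CTRL 3 or Emul 4). The part of these cell types in the differences of the 10 genes was not tested.

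The 10 genes had 45 annotated transcripts, of which 17 held at least 5% of their gene's counts on average. Gpr17, Olig1 and Olig2 had 1 transcript each. Enpp6-201, Sox10-201, Nkx2-2-201, Myrf-201, Pdgfra-201 and Cspg4-201 each held most of their gene's counts, with mean shares of 97.1%, 92.3%, 89.7%, 85.9%, 81.6% and 79.9%. Smaller shares fell on Pdgfra-202 (16.0%), Myrf-202 (7.30%) and Sox10-203 (6.83%), which are annotated as coding. Cspg4-204 (10.6%) and Cspg4-203 (7.46%) are annotated as retained introns. Bcas1 was divided between Bcas1-201 (48.1%), which has 13 exons, and Bcas1-208 (44.7%), which has 7 exons and starts 21319 bases downstream.

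Use of transcripts within a gene was compared by limma diffSplice for the 6 genes with more than 1 transcript past the filter. At an adjusted p under 0.05, 0 of the 6 were called, beside 3.10% of the 9305 genes tested. Nkx2-2 had the smallest p (unadjusted 0.0498, adjusted 0.282). Its main transcript Nkx2-2-201 held 93.2%, 89.8%, 92.1% and 90.2% of the gene's counts in CTRL 1 to 4 and 88.9%, 87.0%, 89.2%, 87.2% and 89.2% in Emul 1 to 5. The groups did not overlap, and the two-sided exact permutation test gave p = 0.0079, the smallest it can give, among 14 shares compared and without adjustment. The part of all transcripts whose shares did not overlap between groups was not counted. Nkx2-2-203, which starts 303 bases downstream of Nkx2-2-201, held 5.46% ± 1.5 in CTRL (SD, n = 4) and 8.24% ± 1.1 in Emul (SD, n = 5). With 482 to 842 counts per library for the whole gene, Nkx2-2-203 rests on few reads, and the uncertainty of dividing reads between transcripts was not modelled. For Bcas1, the shares of Bcas1-201 were 46.6% ± 3.8 in CTRL and 49.3% ± 1.2 in Emul (SD), which overlapped.

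Across the 9 libraries the genes varied together to different degrees, given here as Pearson correlations of log2 CPM without a test. Both groups enter, so a shared difference between groups is part of each value. Bcas1 and Enpp6 were most alike (r = 0.95), and Olig1 and Myrf followed (r = 0.94). Myrf had r = 0.89 with Enpp6 and 0.88 with Sox10. Pdgfra had r between -0.34 (Nkx2-2) and 0.66 (Gpr17), and its r with the other precursor gene, Cspg4, was 0.53. Cspg4 had r = 0.43 with Gpr17.

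Among all tested genes, those most like Pdgfra over the 9 libraries were Vps37a (r = 0.95), Dgkk (r = 0.92) and Ada (r = 0.92). Gpr17 was most like Prr3 (r = 0.97), Pnrc2 (r = 0.96) and Gng12 (r = 0.94). Enpp6 was most like Plxnb3 (r = 0.97), Otud7b (r = 0.96) and Ccnyl1 (r = 0.96), whose log2 fold changes were -0.36 ± 0.095, -0.19 ± 0.067 and -0.24 ± 0.059 (SE). Myrf was most like Cers2, Zdhhc9 and Slc12a2 (each r = 0.99), with log2 fold changes of -0.19 ± 0.064, -0.17 ± 0.064 and -0.22 ± 0.073 (SE). The genes like Pdgfra and Gpr17 had log2 fold changes between -0.11 and 0.02. These are the highest of all tested genes over 9 points, so they are high by selection.

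On the log2 CPM table that the authors deposited, 9 of the 10 genes were lower in Emul, Pdgfra being at 0.0059, and 4 had an unadjusted p under 0.05 by limma-trend (Enpp6, Bcas1, Myrf and Olig1), beside 7.42% of the 14592 named rows called lower. The smallest adjusted p there was 0.167. With library size alone in place of TMM, 81.3% of the genes called at an unadjusted p under 0.05 were lower (2248 lower, 517 higher), against 56.8% with TMM (1379 lower, 1049 higher), and 6 of the 10 genes were called.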

How the data were processed

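Mediobasal hypothalamus RNA of 4 CTRL and 5 Emul litters was sequenced by the authors, who per the submitters' processing notes used FastQC 0.11.9, kallisto 0.46.1 and edgeR 3.40.1 on mm10. The deposited files give kallisto's estimated counts and TPM for 119414 transcripts in each library, not scaled between libraries, and a log2 CPM table of 14593 rows, 1 of them without a gene name and left aside. How transcripts were summed to genes for that table is not given in the sources used here.

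Transcripts were matched to genes by Ensembl identifier in GENCODE M21 (97.8% matched). Counts on transcripts that did not match (1.20% to 1.27%) were not used. Gene counts are sums of estimated counts, rounded only for edgeR and DESeq2. The filter on low counts asked for CPM above 1 in 4 or more libraries. Groups were compared by limma-voom (limma 3.58.1, edgeR 4.0.16, R 4.3.3) with TMM and no covariates, two-sided. Log2 CPM of single libraries used a prior count of 2. Transcript usage was tested by diffSplice (CPM above 1), and single values by an exact permutation test over libraries. DESeq2 was 1.42.0. The scripts were checked on simulated data. The alternatives were other tests, weights, scalings, filters and gene summaries, the authors' table, the replicate number as a block and each library left out. No pairing of the litters by replicate number was seen (correlations of deviations -0.16 to 0.02 for numbers 1 to 4). These values do not show whether libraries of the same number shared a step of processing. Depth was 28245360 to 46067534 counts per library. Libraries of the same group were compared in pairs, and in each pair the counts differed by more than sampling noise.

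The 10 genes and all lists were chosen with earlier results of these data known. Named are all 10, the 2 genes of each other list with the smallest p, the 3 genes most correlated with Pdgfra, Gpr17, Enpp6 and Myrf, and transcripts with at least 5% of counts; Pdgfa, Tcf7l2, Slc17a6, Slc32a1, Gad1 and Gad2 were added after their values were seen. A gene that this rule names is not reported here.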

Additional observations from a re-analysis of the deposited data

Results flagged for a closer look

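In CTRL, the log2 CPM of Bcas1 in CTRL 4 (7.81) stood apart from the other 3 libraries (7.89 to 7.91), with a gap of 0.846 of the group's range. In Emul, Myrf-201 was 84.1% of Myrf counts in Emul 5 against 87.1% to 87.8% in the other 4 libraries, a gap of 0.797 of the range. Of 56 groups of values examined 2 were flagged by this gap, and chance flags about 1 in 20, or 2.8 of 56.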

How the results depend on the processing

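Over 22 alternatives, 9 of them leaving out 1 library, 9 of 220 fold changes of the 10 genes changed sign, all near 0. Of these, 8 were of Pdgfra (0.0011 with median-of-ratios size factors, 0.0025 without mitochondrial genes, 0.010 with older transcripts only, 0.0059 on the authors' table, and 4 with a library left out, over which it ranged from -0.034 to 0.035) and 1 was of Olig2 (-0.096 to 0.022 with a library left out, positive without CTRL 1). The other genes kept a negative sign in all of them. The number of the 10 genes with an adjusted p under 0.05 was 0 except with DESeq2 (1, Enpp6), which called 341 of all genes against 18 by limma-voom and 0 to 60 in the other alternatives. At an unadjusted p under 0.05 it was 3 with the replicate block, a fit in which Emul 5 has no partner and adds nothing, and 3 to 6 with a library left out, against 5. With a library left out, the number was 1 to 5 among other precursor genes, 5 to 13 among other newly formed stage genes and 4 to 15 among myelin genes. Sample quality weights gave 2 of the precursor genes, and the newly formed stage genes numbered 14 with library size alone and 4 with lengthScaledTPM. Transcript usage gave 0 calls among the 10 genes throughout.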
